A study of Mus musculus with 31 samples.

Results

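Transforming growth factor beta (TGF-beta) signalling was described through 10 genes in sorted mouse long-term haematopoietic stem cells (LT-HSCs): the ligand Tgfb1, the latency protein Ltbp3, the receptors and co-receptors Tgfbr1, Tgfbr2, Tgfbr3 and Eng, the signal transducers Smad3 and Smad4, the inhibitory Smad7 and the corepressor Skil. The genes were taken by symbol from a table of gene counts with 55492 rows. All 10 were found, and all 10 passed the filter on low counts that left 22172 rows for testing, the lowest count of any of them in any library being 205 reads.

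TGF-beta is made as a precursor that stays bound to its own propeptide, and latent TGF-beta binding proteins such as Ltbp3 attach this complex to the extracellular matrix, from which integrins and other factors release it. Free ligand binds the type II receptor Tgfbr2, which phosphorylates the type I receptor Tgfbr1, and this phosphorylates Smad2 and Smad3, which enter the nucleus with Smad4. Smad7 and Skil are induced by the pathway and oppose it. In bone marrow, TGF-beta is known as a signal that keeps haematopoietic stem cells quiescent.

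The cells came from wild-type mice that had received mutant bone marrow mixed with wild-type competitor marrow in 10-fold excess. VF donors carried SclCre;FF1;GFP, that is mutant human JAK2 (V617F), an activated kinase found in myeloproliferative neoplasms, brought in by a Cre recombinase under the Scl promoter, and a GFP reporter. VFDM donors carried in addition a deletion of both copies of Dnmt3a, a de novo DNA methyltransferase. Treatment began 4 weeks after the transplant and lasted 8 weeks. Its arms were vehicle, weekly pegylated interferon alpha at 25 µg/kg (IFN), daily 5-azacytidine at 2 mg/kg (AZA), which traps DNA methyltransferases, and both drugs at those doses (COMBO). Both genotypes therefore carried the JAK2 transgene and all animals were transplant recipients, and no ages are given. The stem cells were sorted as Lin-Sca1+cKit+CD48-CD150+. That gate names no GFP, so the sorted cells can hold wild-type cells of the competing marrow. There were 4 libraries in each of the 8 groups except VFDM COMBO, which had 3 (numbered 2, 3 and 4), 31 in all. The labels do not say that each library came from a separate animal, so the spread behind each p-value is that between libraries.

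Library totals ran from 17782394 to 73910928 counts. In 8 libraries (VF AZA 2 and 3, VF COMBO 1, 2 and 3, VFDM AZA 3 and 4, VFDM COMBO 3) fewer than 20000 rows had a count. In VF vehicle, 8.49% to 37.5% of counts fell on small RNA genes, against 5.02% to 10.5% in the other groups. VF vehicle 1 and 4 also had the lowest share of mitochondrial counts, 1.82% and 0.859% against 6.28% to 11.8% in the other libraries. Dnmt3a was at 104 to 297 CPM (the count of a gene relative to its TMM-scaled library total) in VF. In VFDM it was at 23.0 to 120 CPM, except the library labelled VFDM IFN 3, at 162 CPM. The ranges overlapped, since VF COMBO 3, at 104 CPM, lay under the VFDM vehicle libraries at 109 to 120 CPM. All other VF libraries held 140 CPM or more, and VFDM IFN 3 lay among these. Results were recomputed without the 8 libraries with few detected rows, without VF vehicle 1 and 4, and without VFDM IFN 3.

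Compared per length, the ligand was the most abundant of the 10 transcripts in VF vehicle, with 46.7 CPM per kilobase of exon for Tgfb1. It was followed by Eng (29.6 CPM per kilobase) and Smad4 (20.0 CPM per kilobase). Ltbp3, Smad3 and Tgfbr3 lay close together at 16.7, 16.7 and 16.3 CPM per kilobase, and Tgfbr2 (8.74), Smad7 (7.88), Tgfbr1 (5.39) and Skil (4.86 CPM per kilobase) were lowest. From here on, levels are CPM and are compared within a gene.

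**Figure D1:**
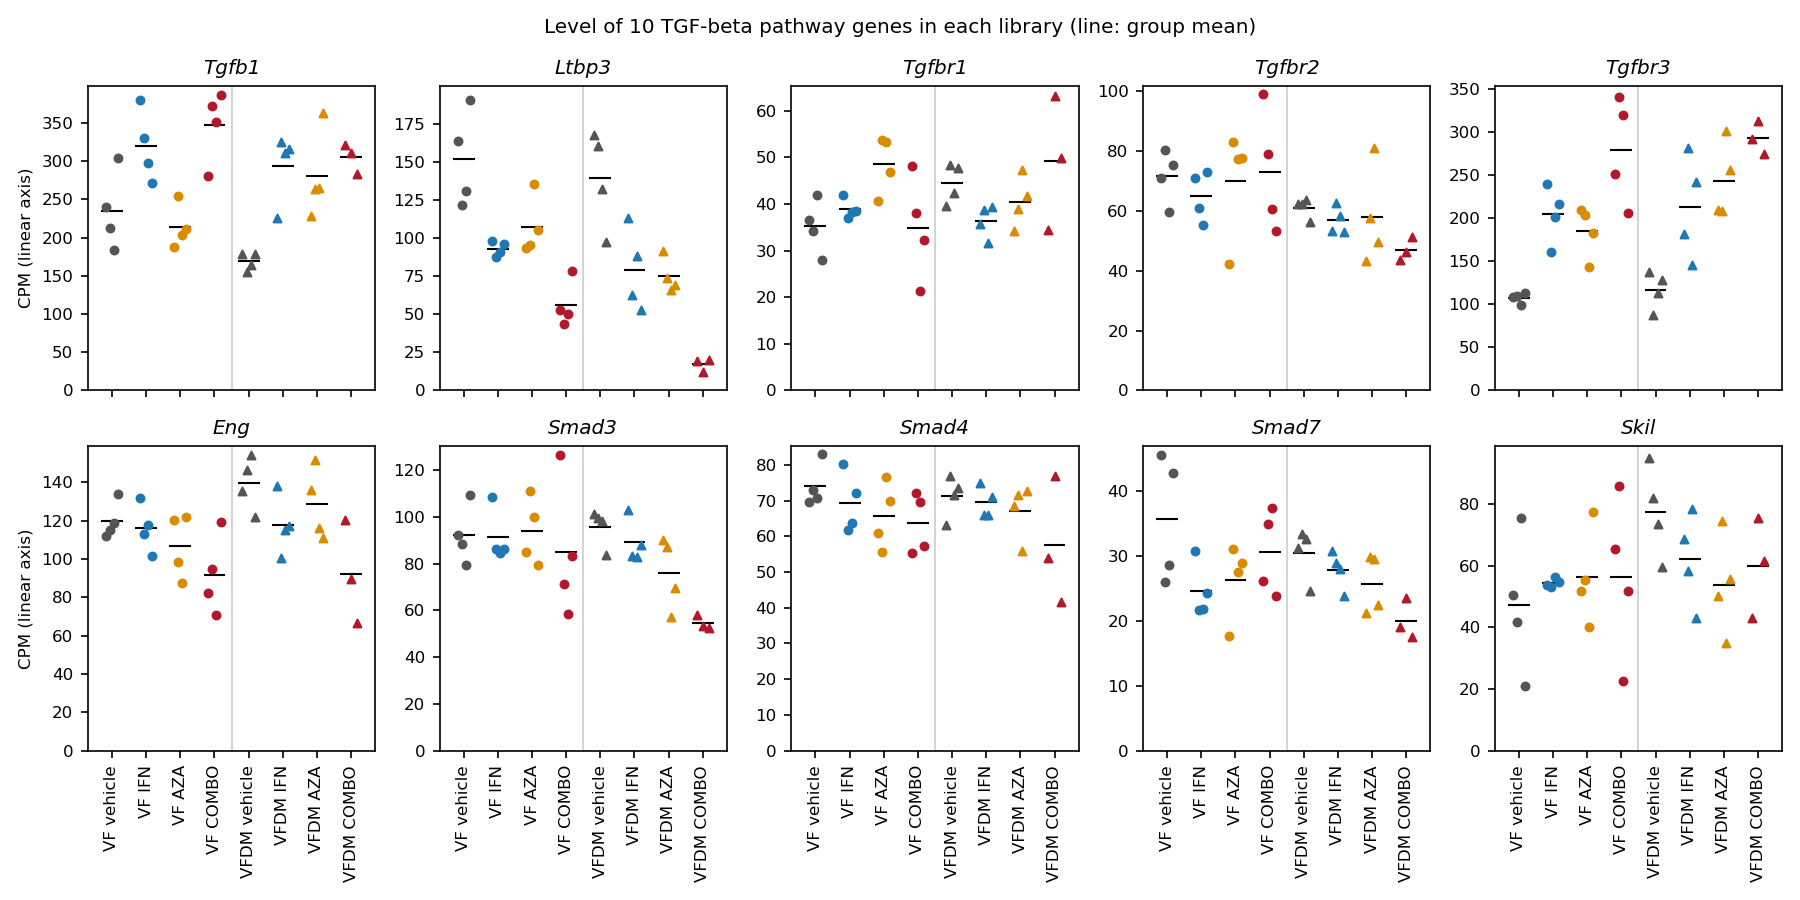
Level of each of the 10 genes in every library, in CPM on a linear axis from 0. Points are libraries (circles VF, triangles VFDM), short lines are group means, and each panel has its own scale. The 3 VFDM COMBO libraries hold 11.8 to 19.6 CPM of Ltbp3 and lie under all others, and every treated library lies above both vehicle groups in the Tgfbr3 panel.

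The promoters of Tgfb1 and Ltbp3 are printed because they belong to the ligand and to its latency protein, which moved in opposite directions below. RefSeq (GRCm38.p6) gave 7 promoters for 6 of the 10 genes, and none for Tgfbr3, Smad4, Smad7 and Skil. The stretches are the 250 bases before the annotated start, 5′ to 3′ on the strand of the gene, with CpG dinucleotides, the sites of most DNA methylation in mammals, in capitals. Tgfb1 is at chr7:25686752-25687001 on the plus strand, and Ltbp3 at chr19:5740650-5740899 on the plus strand.
Tgfb1: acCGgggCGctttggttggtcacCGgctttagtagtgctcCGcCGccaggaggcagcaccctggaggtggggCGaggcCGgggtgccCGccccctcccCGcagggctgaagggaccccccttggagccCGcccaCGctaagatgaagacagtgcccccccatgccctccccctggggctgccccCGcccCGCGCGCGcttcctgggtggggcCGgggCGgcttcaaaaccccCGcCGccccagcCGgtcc
Ltbp3: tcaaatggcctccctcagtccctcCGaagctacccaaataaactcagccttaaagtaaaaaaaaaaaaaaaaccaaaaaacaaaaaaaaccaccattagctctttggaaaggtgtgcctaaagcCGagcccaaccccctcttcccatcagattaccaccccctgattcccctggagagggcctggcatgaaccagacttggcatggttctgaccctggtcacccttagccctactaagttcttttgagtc
The Tgfb1 stretch held 21 CpG dinucleotides, more than 83.7% of the 32851 mouse promoters of that length, whose median was 6. The Ltbp3 stretch held 2, more than 18.8% of promoters. Searched on both strands, neither stretch held the letters common to interferon-stimulated response elements (GAAANNGAA, in 7.13% of all promoters), an interferon-gamma-activated site (TTCNNNGAA, in 7.02%), the SMAD palindrome GTCTAGAC (in 0.167%) or the SMAD box CAGACA (in 17.1%). Matches of the 2 interferon motifs may share bases. The stretches show letters only, since no methylation was measured in this data set.

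Of the 10 genes, each treatment changed between 1 and 5 against the vehicle of the same genotype, at an adjusted p under 0.05 in edgeR's quasi-likelihood test with Benjamini-Hochberg adjustment over 22172 rows. IFN raised 1 and lowered none in VF, where 2.43% of all rows were called (1.27% higher and 1.16% lower). In VFDM it raised 2 and lowered none, with 0.965% of rows called (0.916% higher and 0.0496% lower). AZA raised 1 and lowered none in VF, with 1.20% of rows called (0.293% higher and 0.902% lower). In VFDM it raised 2 and lowered 1, with 0.925% called (0.852% higher and 0.0722% lower). COMBO raised 2 and lowered 1 in VF, with 8.29% called (4.16% higher and 4.13% lower). In VFDM it raised 2 and lowered 3, with 16.0% called (5.52% higher and 10.5% lower). The median log2 fold change of the 10 genes was between -0.13 and -0.03 in the first 5 of these comparisons, beside -0.11 to -0.01 over all rows. In VFDM COMBO it was -0.37 beside -0.08. The changes lay in Tgfb1, Ltbp3 and Tgfbr3 in both genotypes, with Smad3 and Eng added in VFDM COMBO. Tgfbr1, Tgfbr2, Smad4, Smad7 and Skil were called in none of the 15 comparisons made. The 3 treatments of a genotype share their vehicle libraries, so these counts are not independent of one another.

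**Figure D2:**
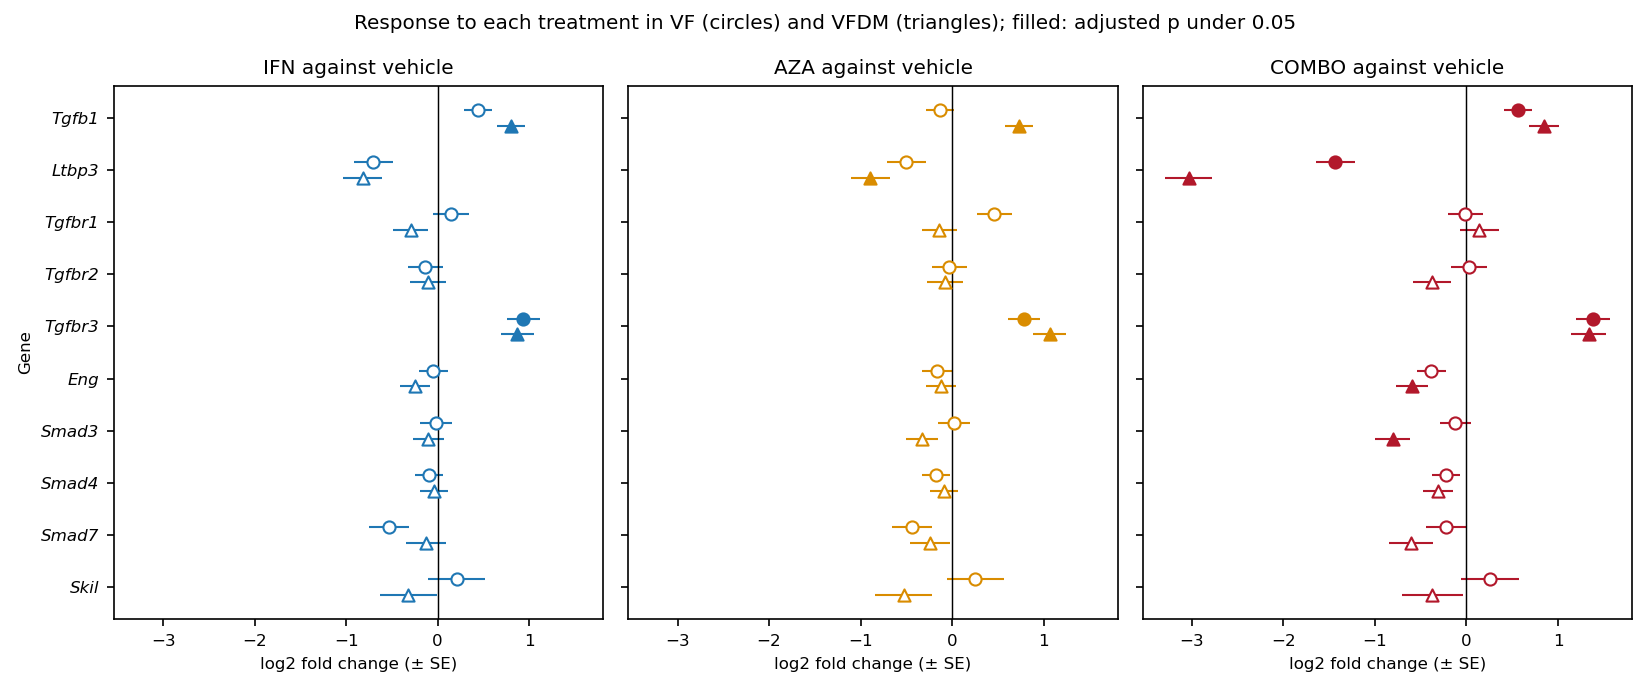
Log2 fold change against vehicle (± SE, edgeR) of the 10 genes after IFN, AZA and COMBO, with VF as circles and VFDM as triangles. Filled symbols have an adjusted p under 0.05: all 6 for Tgfbr3, 4 for Tgfb1, 3 for Ltbp3, and 1 each for Eng and Smad3.

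Tgfb1 (ENSMUSG00000002603, chr7:25687002-25705077 in mm10, plus strand) encodes the ligand itself. In VFDM the vehicle libraries held 179, 155, 164 and 178 CPM, and every treated library held more. The IFN libraries held 225, 325, 312 and 316 CPM, the AZA libraries 229, 264, 265 and 363 CPM, and the COMBO libraries 322, 311 and 283 CPM. None of the 3 treated groups overlapped the vehicle group. The log2 fold change was 0.80 ± 0.15 (SE, adjusted p = 0.00214, edgeR) after IFN. It was 0.73 ± 0.15 (adjusted p = 0.00751, edgeR) after AZA, where the call ended without VFDM AZA 4 (adjusted p = 0.0691, edgeR) and without the libraries with few detected rows (0.241). After COMBO it was 0.85 ± 0.16 (adjusted p = 2.88e-04, edgeR).

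In VF the vehicle libraries held more Tgfb1, 241, 212, 184 and 304 CPM, and the response was less uniform. The IFN libraries held 380, 330, 298 and 272 CPM, with a log2 fold change of 0.44 ± 0.15 (adjusted p = 0.133, edgeR), and the groups overlapped. AZA gave 188, 255, 203 and 211 CPM, within the vehicle range, and -0.14 ± 0.15 (adjusted p = 0.766, edgeR). After COMBO the libraries held 281, 372, 351 and 387 CPM, 1.48-fold the vehicle mean. The log2 fold change of 0.57 ± 0.15 was called (adjusted p = 0.0178, edgeR), although the groups overlapped by 1 library, and the call ended without VF vehicle 3 (adjusted p = 0.0568, edgeR) and without the libraries with few detected rows (0.108). Without VF vehicle 1 and 4, which held 241 and 304 CPM, the log2 fold change after COMBO was 0.84, and the call held. The group means ran from 169 ± 11.4 CPM (SD, n = 4) in VFDM vehicle to 348 ± 46.9 CPM (SD, n = 4) in VF COMBO. VFDM vehicle was lower than VF AZA (214 CPM), its neighbour in that order, without overlap, and all other neighbours overlapped.

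Ltbp3 (ENSMUSG00000024940, chr19:5740904-5758532 in mm10, plus strand) encodes a latent TGF-beta binding protein that takes part in secretion and matrix storage of the ligand. VFDM vehicle libraries held 168, 160, 132 and 97.1 CPM, and VFDM COMBO libraries 19.5, 11.8 and 19.6 CPM. This was the largest change among the 10 genes, an 8.23-fold lower mean and a log2 fold change of -3.04 ± 0.26 (adjusted p = 6.65e-10, edgeR). In VF, COMBO libraries held 52.5, 43.7, 50.3 and 78.3 CPM against 164, 122, 131 and 191 CPM in vehicle. The groups did not overlap, and the log2 fold change was -1.43 ± 0.22 (adjusted p = 6.38e-05, edgeR). Without the libraries with few detected rows, which leaves 1 VF COMBO library, it was -0.93 ± 0.32 (adjusted p = 0.229, edgeR).

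Single drugs gave lower Ltbp3 values that mostly missed the threshold. VFDM AZA libraries held 91.8, 73.6, 65.8 and 69.2 CPM, all under the lowest vehicle library. That difference was called, at -0.89 ± 0.21 (adjusted p = 0.0288, edgeR), but not when any of VFDM vehicle 1, 2 or 3 or VFDM AZA 2, 3 or 4 was left out, the adjusted p then being 0.0653 to 0.153, nor without the libraries with few detected rows (0.277). VFDM IFN libraries held 113, 62.5, 88.1 and 52.5 CPM, with -0.82 ± 0.21 (adjusted p = 0.0544, edgeR). This difference was called in 6 of 8 other settings, 1 of them DESeq2 (adjusted p = 0.0138). With 1 library left out it was called in 2 of 8 fits. The highest adjusted p of these fits was 0.304 (edgeR), without VFDM IFN 4. VF IFN libraries held 97.8, 87.6, 90.9 and 96.1 CPM, all below the VF vehicle libraries, with -0.71 ± 0.21 (adjusted p = 0.0728, edgeR). It was called in 2 of 8 other settings, 1 of them DESeq2 (adjusted p = 0.0342), and in 1 of 8 fits with 1 library left out. Without VF vehicle 1 and 4 the value was -0.43. Without VF vehicle 4 alone it was -0.57 (adjusted p = 0.395, edgeR). VF AZA libraries held 93.4, 95.2, 135 and 106 CPM and overlapped vehicle, with -0.50 ± 0.21 (adjusted p = 0.265, edgeR). The order of the group means ran from VF vehicle (152 ± 31.7 CPM, SD, n = 4) down to VFDM COMBO (16.9 ± 4.46 CPM, SD, n = 3). Neighbours in that order overlapped except VF COMBO and VFDM COMBO.

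Tgfbr3 (ENSMUSG00000029287, chr5:107106570-107289629 in mm10, minus strand) encodes betaglycan, a co-receptor that presents TGF-beta to the signalling receptors and whose shed form binds ligand away from them. It was the one gene of the 10 that was called in all 6 comparisons with vehicle, and in each of them the groups did not overlap. VF vehicle libraries were tightly grouped at 108, 109, 98.5 and 113 CPM. VF IFN libraries held 239, 161, 201 and 217 CPM, a log2 fold change of 0.94 ± 0.18 (adjusted p = 0.00152, edgeR). VF AZA libraries held 209, 204, 143 and 182 CPM, a log2 fold change of 0.79 ± 0.18 (adjusted p = 0.0205, edgeR). This call ended without VF vehicle 4 (adjusted p = 0.0552, edgeR), without VF AZA 2 (0.0741), without VF vehicle 1 and 4 (0.142) and without the libraries with few detected rows (0.140). VF COMBO libraries held 251, 341, 320 and 206 CPM, 2.61-fold the vehicle mean, with 1.38 ± 0.18 (adjusted p = 6.71e-06, edgeR). Without the libraries with few detected rows that value was 0.97 ± 0.24 (adjusted p = 0.0614, edgeR).

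The same gene rose in VFDM. Its vehicle libraries held 137, 86.9, 113 and 128 CPM, and the IFN libraries 182, 281, 146 and 242 CPM. The log2 fold change was 0.87 ± 0.18 (adjusted p = 0.00586, edgeR), and the call ended without VFDM vehicle 2 (adjusted p = 0.0671, edgeR) or VFDM IFN 2 (0.0705). AZA libraries held 209, 208, 302 and 255 CPM, with 1.07 ± 0.18 (adjusted p = 5.27e-04, edgeR). COMBO libraries held 291, 313 and 274 CPM, 2.52-fold the vehicle mean, with 1.33 ± 0.19 (adjusted p = 5.77e-06, edgeR). Both vehicle groups (107 ± 5.99 and 116 ± 21.9 CPM, SD, n = 4 each) stood at the foot of the order of group means, separated from VF AZA above them, and the 6 treated groups overlapped their neighbours from 185 to 293 CPM. The exons of Tgfbr3 share 297 bases with Gm43422, an unclassified transcript on the same strand.

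The signalling receptors themselves were not called. Tgfbr1 (type I receptor, ENSMUSG00000007613, chr4:47353222-47414931, plus strand) ran from a group mean of 34.9 ± 11.2 CPM (SD, n = 4) in VF COMBO to 49.2 ± 14.4 CPM (SD, n = 3) in VFDM COMBO, and all neighbours in the order overlapped. In VF AZA its libraries held 40.6, 53.7, 53.3 and 46.9 CPM against 36.6, 34.3, 42.0 and 28.0 CPM in vehicle, a log2 fold change of 0.46 ± 0.20 (95% interval 0.07 to 0.86, adjusted p = 0.260, edgeR). Tgfbr2 (type II receptor, ENSMUSG00000032440, chr9:116084293-116175360, minus strand) had group means from 47.0 ± 3.98 CPM (SD, n = 3) in VFDM COMBO to 73.0 ± 20.4 CPM (SD, n = 4) in VF COMBO. All 4 VF groups had higher means than all 4 VFDM groups, and neighbours in the order overlapped except VFDM IFN (56.8 CPM) and VFDM COMBO. The VFDM COMBO libraries held 43.5, 46.3 and 51.3 CPM, under the VFDM vehicle libraries at 62.3, 62.3, 63.5 and 56.4 CPM. That difference of -0.38 ± 0.21 had a 95% interval of -0.81 to 0.05 (adjusted p = 0.237, edgeR).

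Eng (ENSMUSG00000026814, chr2:32646595-32682669, plus strand) encodes endoglin, a co-receptor for TGF-beta family ligands that is also found on stem cells. It was lower in VFDM COMBO, at 120, 89.6 and 66.8 CPM, than in VFDM vehicle, at 136, 146, 154 and 122 CPM. The gap between the groups was narrow, since the highest COMBO library lay just under the lowest vehicle library, and the log2 fold change was -0.60 ± 0.18 (adjusted p = 0.0180, edgeR). The call ended without VFDM vehicle 2 or 3 or without VFDM COMBO 3 or 4, and without COMBO 4 the value was -0.36 ± 0.18 (adjusted p = 0.202, edgeR). VF COMBO libraries held 82.2, 94.9, 71.0 and 119 CPM against 112, 115, 119 and 134 CPM in VF vehicle, a log2 fold change of -0.38 ± 0.16 (adjusted p = 0.134, edgeR). Eng shares 61 exonic bases with Fpgs on the opposite strand, and no source states the strand setting of the counting, so reads there cannot be told apart.

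Among the signal transducers, Smad3 changed and Smad4 was not called. Smad3 (ENSMUSG00000032402, chr9:63646767-63757994, minus strand), the receptor-regulated SMAD of the TGF-beta branch, stood at 101, 99.3, 98.1 and 83.5 CPM in VFDM vehicle and at 58.0, 53.4 and 52.3 CPM in VFDM COMBO. The 3 COMBO libraries were close together and well below vehicle, a log2 fold change of -0.81 ± 0.19 (adjusted p = 0.00300, edgeR). In VF COMBO the libraries spread from 58.5 to 126 CPM around a mean of 84.9 CPM, and the log2 fold change was -0.12 ± 0.17 (adjusted p = 0.719, edgeR). Smad4 (ENSMUSG00000024515, chromosome 18), the common partner of the receptor-regulated SMADs, had group means from 57.5 ± 17.9 CPM (SD, n = 3) in VFDM COMBO to 74.2 ± 6.16 CPM (SD, n = 4) in VF vehicle. All its neighbouring groups overlapped, and its log2 fold change in VFDM COMBO was -0.31 ± 0.17 (95% interval -0.65 to 0.03, adjusted p = 0.210, edgeR).

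The 2 feedback inhibitors gave no call. Smad7 (ENSMUSG00000025880, chromosome 18), which blocks the type I receptor, held 19.0, 23.5 and 17.4 CPM in VFDM COMBO, just under the VFDM vehicle libraries at 31.1, 33.4, 32.6 and 24.6 CPM. The log2 fold change was -0.61 ± 0.24 (95% interval -1.09 to -0.13, adjusted p = 0.0753, edgeR). This difference was called in 1 of 8 other settings and in 0 of 7 fits with 1 library left out. In VF vehicle it was uneven, with 45.4 and 42.6 CPM in libraries 1 and 4 and 25.9 and 28.5 CPM in libraries 2 and 3. Skil (ENSMUSG00000027660, chr3:31095058-31122577, plus strand), the corepressor SnoN that binds SMADs, spread widely in some groups. Its VF vehicle libraries ran from 20.8 to 75.4 CPM and its VF COMBO libraries from 22.5 to 85.9 CPM, and neighbouring groups overlapped throughout. The 95% interval of its log2 fold change in VFDM COMBO ran from -1.06 to 0.32 (adjusted p = 0.524, edgeR).

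COMBO was next compared with each drug alone. In VFDM, none of the 10 genes rose and 2 fell against IFN, where 7.88% of rows were called (1.60% higher and 6.28% lower). Against AZA none rose and 1 fell, with 7.82% of rows called (1.94% higher and 5.87% lower). Ltbp3 was the gene shared by both, with -2.22 ± 0.25 against IFN (adjusted p = 3.63e-07, edgeR) and -2.14 ± 0.25 against AZA (adjusted p = 5.86e-07, edgeR), and its COMBO libraries overlapped neither group. Smad3 fell against IFN, whose libraries held 103, 83.0, 82.8 and 87.9 CPM, with -0.71 ± 0.19 (adjusted p = 0.0167, edgeR), a call that ended without VFDM IFN 1, VFDM COMBO 3 or VFDM COMBO 4 (adjusted p 0.0844 to 0.0953). In VF, none of the 10 was called against IFN by edgeR or DESeq2, where 0.00902% of rows were called and 3 of the 10 had an unadjusted p under 0.05. Ltbp3 was among those, at -0.73 ± 0.21 (adjusted p = 0.252, edgeR). Against AZA, 1 rose and 1 fell in VF, with 1.85% of rows called (1.06% higher and 0.794% lower). Tgfb1 was higher by 0.70 ± 0.15 (adjusted p = 0.00903, edgeR), without overlap, and Ltbp3 was lower by -0.93 ± 0.21 (adjusted p = 0.0152, edgeR). Without the libraries with few detected rows these were 0.96 ± 0.24 (adjusted p = 0.116, edgeR) and -0.34 ± 0.33 (adjusted p = 1, edgeR), and the Ltbp3 call also ended without VF AZA 3, VF COMBO 2 or VF COMBO 3. Tgfbr3 was not called in any of these 4 comparisons, its log2 fold changes being 0.27 to 0.60. In VF against AZA it was 0.60 ± 0.18 (adjusted p = 0.0752, edgeR), and 2 of 8 other settings called it. Without the libraries with few detected rows, which leaves 1 VF COMBO library, that value was 0.08. Against IFN it was 0.45 ± 0.18 in VF (adjusted p = 0.335, edgeR) and 0.46 ± 0.19 in VFDM (adjusted p = 0.140, edgeR).

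The genotypes were then compared. With vehicle, none of the 10 genes was called by edgeR or DESeq2, 0.956% of rows being called by edgeR, and 2 of the 10 had an unadjusted p under 0.05. These were Tgfb1, lower in VFDM by -0.48 ± 0.15 (adjusted p = 0.134, edgeR) with groups that did not overlap, and Skil, at 59.6, 73.6 and 81.9 CPM in VFDM vehicle 4, 3 and 2 and higher still in VFDM vehicle 1, against 50.4, 41.7, 75.4 and 20.8 CPM in VF, with 0.72 ± 0.31 (adjusted p = 0.349, edgeR). Averaged over the 4 treatments, 1 of the 10 was lower in VFDM and none higher, with 2.37% of rows called (0.794% higher and 1.57% lower). That gene was Ltbp3, at -0.65 ± 0.11 (adjusted p = 5.02e-04, edgeR). With vehicle alone its difference was -0.12 ± 0.21 (adjusted p = 0.970, edgeR). Tgfbr2 came next, at -0.33 ± 0.10 (adjusted p = 0.0676, edgeR).

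Whether a response differed between genotypes was tested as an interaction. For IFN, none of the 10 genes was called by edgeR or DESeq2, none had an unadjusted p under 0.05, and 0% of rows were called. For AZA, none was called, with 0.582% of rows called and 2 of the 10 at an unadjusted p under 0.05. The Tgfb1 response to AZA was 0.86 ± 0.21 log2 units more positive in VFDM than in VF (adjusted p = 0.0533, edgeR). DESeq2 called this difference (adjusted p = 0.0187), as did edgeR on protein-coding rows only (0.0399). Of the 8 settings other than leaving out 1 library, 6 did not call it, the highest adjusted p being 0.554 (edgeR). Without VF vehicle 1 and 4 the value was 0.59. For COMBO, 1 of the 10 was called, in the negative direction, with 3.74% of rows called (1.25% positive and 2.49% negative). The Ltbp3 response was -1.60 ± 0.32 log2 units lower in VFDM than in VF (adjusted p = 0.00260, edgeR), a difference called in each setting tried. The Tgfbr3 responses had interaction terms of -0.06 ± 0.25 for IFN, 0.28 ± 0.25 for AZA and -0.05 ± 0.26 for COMBO, and the 95% interval of the last ran from -0.59 to 0.49. For Smad3 the COMBO interaction was -0.69 ± 0.26 (adjusted p = 0.127, edgeR), so a difference between the genotypes was not shown for it.

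The sorted cells were checked against markers. All 15 LT-HSC markers looked up had counts in all 8 groups, but in VFDM COMBO 10 of the 15 were lower than in vehicle, none was higher, and the mean log2(CPM + 1) of the list was 4.89 to 5.00 against 6.83 to 7.05 in VFDM vehicle. Of the erythroid markers, 9 of 10 were higher and none was lower, and their summed level was 2075 to 15526 CPM against 487 to 500.2 CPM. Of 14 monocyte and neutrophil markers, 6 were higher and none lower (649 to 1526 CPM against 105 to 179 CPM). Cd48, which the sort excludes, was higher (14.1 to 22.8 CPM against 4.53 to 7.60 CPM). Endothelial markers, of which 2 of 8 were lower, summed to 72.8 to 95.9 CPM against 204 to 256 CPM. Stromal markers summed to 48.3 to 54.5 CPM against 12.9 to 24.01 CPM, 1 of 5 tested being higher, with Dcn and Lum at 0 in both groups. T and NK cell markers summed to 25.3 to 35.8 CPM against 8.21 to 12.1 CPM, 2 of 8 tested being higher and none lower. For B cell markers the sums were 8.74 to 42.1 CPM against 4.31 to 6.37 CPM, with 2 of 5 tested higher and none lower. The lower Ltbp3, Smad3 and Eng and the higher Tgfb1 and Tgfbr3 of VFDM COMBO stand beside these marker changes, and the part of a changed cell composition in them was not tested. In bulk RNA, fewer cells of a type and less RNA per cell cannot be told apart.

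In VF COMBO the LT-HSC markers differed between libraries, with a list mean of 6.67 in library 1 and 5.87, 5.30 and 6.28 in libraries 2, 3 and 4, against 6.57 to 6.64 in VF vehicle. Libraries 1, 2, 3 and 4 held 52.5, 43.7, 50.3 and 78.3 CPM of Ltbp3 and 251, 341, 320 and 206 CPM of Tgfbr3. The part of a changed cell composition in these values was not tested. Library 1 held 162 CPM of summed T and NK cell markers, against 20.9 to 28.7 CPM in the other 3. Libraries 1, 2 and 3 were among those with few detected rows. Erythroid markers summed to 423 to 1090 CPM in VF COMBO, 4 of 10 being higher, against 239 to 485 CPM in vehicle. Cd48 was higher here too, at 3.69 to 15.3 CPM against 2.14 to 3.28 CPM in vehicle. Of the 15 LT-HSC markers, 2 were higher and 2 lower in VF COMBO. After single drugs the LT-HSC means stayed between 6.50 and 7.06, close to the vehicle groups, while other lists moved.

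Megakaryocyte and platelet markers summed to 1550 to 1983 CPM in VF IFN, 1072 to 1874 CPM in VFDM IFN and 1076 to 1198 CPM in VFDM AZA, against 585 to 747 CPM in VF vehicle and 490 to 797 CPM in VFDM vehicle. In these 3 comparisons 2, 3 and 1 of 12 markers were higher and none was lower. The monocyte and neutrophil list had mean log2(CPM + 1) values of 2.29 to 3.74 in VF IFN against 1.44 to 1.85 in vehicle, with 0 of 14 markers called, and of 2.46 to 4.51 in VFDM IFN against 1.24 to 2.06, with 3 of 14 higher. The erythroid list mean was 3.49 to 3.98 in VF IFN against 2.16 to 3.46 (1 of 10 higher), 3.54 to 4.24 in VFDM IFN against 2.20 to 3.09 (0 of 10 called), and 3.42 to 4.87 in VFDM AZA (4 of 10 higher). By these values none of the groups overlapped its vehicle group. In VF AZA the megakaryocyte, monocyte and erythroid list means overlapped vehicle and none of their markers was called. B cell markers summed to at most 42.1 CPM in any library, and that highest sum was in VFDM COMBO. The calls of Tgfb1, Ltbp3 and Tgfbr3 after IFN and in VFDM AZA stand beside these marker levels, and the part of such cells in them was not tested.

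**Figure D3:**
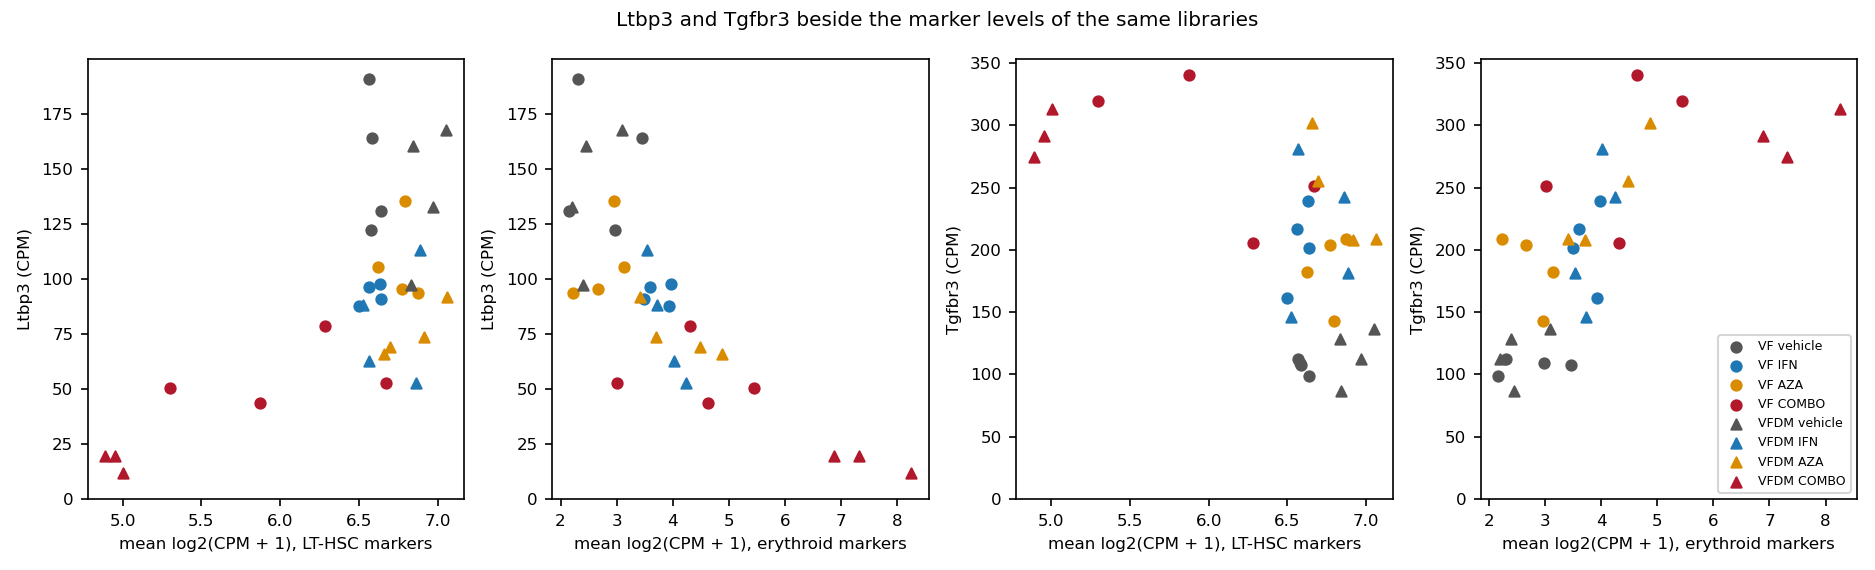
Level of Ltbp3 (left panels) and Tgfbr3 (right panels) in CPM against the mean log2(CPM + 1) of 15 LT-HSC markers and of 10 erythroid markers in the same library. Each point is 1 of 31 libraries, coloured by treatment, with circles for VF and triangles for VFDM. The 3 VFDM COMBO libraries lie apart, at LT-HSC means of 4.89 to 5.00, and all 16 single-drug libraries, at means of 6.50 to 7.06, hold more Tgfbr3 than the vehicle libraries.

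Other genes of the pathway were read from 4 lists of 64 genes, 54 of which were tested. After the single drugs edgeR called 0 of the 54 in all 4 comparisons, with 8 (VF IFN), 7 (VF AZA), 4 (VFDM IFN) and 2 (VFDM AZA) at an unadjusted p under 0.05, and DESeq2 called 1 in each. Without the libraries with few detected rows edgeR called 2 genes of the ligand list and 2 of the SMAD list in VF IFN, and 1 of the ligand list in each of VFDM IFN and VFDM AZA. In the list of ligands, latency and activation, 10 of 12 genes were tested and edgeR called none after IFN or AZA in either genotype, nor after COMBO in VF. In VFDM COMBO, 3 rose and 2 fell, where 5.52% of all rows were higher and 10.5% lower. Ltbp1, another latency protein, rose from 1.27 to 2.97 CPM in vehicle to 11.6 to 32.1 CPM, by 3.48 ± 0.85 log2 units (adjusted p = 0.00438, edgeR), so it moved against Ltbp3. It held 11.3 to 18.3 CPM in VF IFN and 11.2 to 21.7 CPM in VFDM IFN, above all vehicle libraries, without passing the threshold in edgeR. Furin, a protease that cuts the TGF-beta precursor, rose by 0.90 ± 0.26 (adjusted p = 0.0167, edgeR), a call that ended without VFDM COMBO 3 (adjusted p = 0.113, edgeR). Thbs1, a matrix activator of latent TGF-beta, was named after its values were seen, as was Ski below. It rose as well, but through 1 COMBO library of 121 CPM, and gave an adjusted p of 0.307 (edgeR) without it. Itgav, the integrin chain that releases the ligand, fell from 63.2 ± 4.67 CPM (SD, n = 4) to 30.7 ± 7.14 CPM (SD, n = 3), by -1.04 ± 0.23 (adjusted p = 0.00147, edgeR). Ltbp4 had no count in the 3 VFDM COMBO libraries and 6.15 ± 1.66 CPM (SD, n = 4) in vehicle, at least 35.6-fold lower when set against 3 counts in the smallest COMBO library. The list's median was -0.33 beside -0.08 over all rows.

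In the list of other receptors of the superfamily, 9 of 12 genes were tested. None was called after a single drug, and none rose after COMBO. In VF COMBO 2 fell (4.13% of all rows were lower) and in VFDM COMBO 3 fell (10.5% were lower). Acvr1b, a type I receptor for activin, fell in both. It held 81.7 to 118 CPM in VF vehicle and 28.3 to 55.0 CPM in VF COMBO (-1.31 ± 0.24, adjusted p = 7.54e-04, edgeR), and 41.9 to 56.9 CPM in VFDM vehicle and 9.85 to 18.2 CPM in VFDM COMBO (-1.89 ± 0.28, adjusted p = 7.31e-06, edgeR). Averaged over treatments it was also lower in VFDM than in VF, by -0.97 ± 0.12 (adjusted p = 6.00e-06, edgeR). Bmpr2, a type II receptor for bone morphogenetic proteins, fell in VFDM COMBO from 158 to 172 CPM to 52.3 to 98.9 CPM (-1.23 ± 0.20, adjusted p = 2.73e-05, edgeR). Its COMBO response differed between genotypes by -1.17 ± 0.26 (adjusted p = 0.00707, edgeR), not without VF vehicle 1 and 4 (adjusted p = 0.1003) nor without the libraries with few detected rows (0.209). Acvr2a fell in VFDM COMBO to 2.95 ± 2.56 CPM (SD, n = 3) from 15.3 ± 2.34 CPM (SD, n = 4), and Acvr2b fell in VF COMBO (adjusted p = 0.0413, edgeR), a call lost in 7 of 16 other settings, the value going from -1.43 to -0.50 (adjusted p = 0.652, edgeR) without the libraries with few detected rows.

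Of 22 other SMADs and regulators, 21 were tested, none was called after a single drug, 2 rose in VF COMBO (4.16% of all rows were higher) and 5 fell in VFDM COMBO (10.5% were lower). Without the libraries with few detected rows these counts were 0 and 9. The fallers in VFDM COMBO included Smad1 and Smad5, the transducers of the bone morphogenetic protein branch. Smad1 held 53.2 to 64.5 CPM in vehicle and 9.21 to 29.1 CPM in COMBO (-1.38 ± 0.27, adjusted p = 3.99e-04, edgeR). Smad5 held 117 to 131 CPM and 64.2 to 78.4 CPM (-0.76 ± 0.17, adjusted p = 0.00137, edgeR). Nedd4l, a ubiquitin ligase for SMADs, fell by -0.79 ± 0.18 (adjusted p = 0.00175, edgeR), and Fkbp1a, which binds type I receptors, by -2.83 ± 0.67 (adjusted p = 0.00466, edgeR). Ski, the paralogue of Skil, was the fifth, at -0.50 ± 0.16 (adjusted p = 0.0313, edgeR), a call that ended when any 1 of the 7 libraries compared was left out (adjusted p 0.0558 to 0.198). In VF COMBO, Usp15, a deubiquitinase of SMADs and receptors, rose by 0.67 ± 0.14 (adjusted p = 0.00268, edgeR). It was not called without VF vehicle 1 and 4 (adjusted p = 0.112, edgeR) or without the libraries with few detected rows (0.470), and its vehicle libraries spread from 108 to 215 CPM. Rnf111 was higher by 0.46 ± 0.14 (adjusted p = 0.0427, edgeR), with overlapping groups, and lost its call in 5 of 16 other settings, with 0.20 (adjusted p = 0.719, edgeR) without the libraries with few detected rows.

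Among 18 known transcriptional targets of the pathway, 14 were tested and again none was called after a single drug. In VFDM COMBO 1 fell: Cdkn1c, the cyclin-dependent kinase inhibitor p57 that is linked to stem cell quiescence, held 10.5 to 15.5 CPM in vehicle and 0.252 to 2.42 CPM in COMBO (-3.34 ± 0.78, adjusted p = 0.00254, edgeR). In VF COMBO 1 rose, Junb, through 1 library at 127 CPM, and without that library the value was 0.11 (adjusted p = 0.888, edgeR). The list medians were -0.38 in VF COMBO and 0.08 in VFDM COMBO, beside -0.11 and -0.08 over all rows. Across the 4 lists, 14 of the 54 genes tested were called in VFDM COMBO, where 16.0% of all rows were. In VF COMBO 5 of the 54 were called, where 8.29% of all rows were. For VF COMBO alone the share was near that of all rows.

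The same lists were read in the remaining comparisons. Against IFN, VFDM COMBO had 8 of the 54 genes called, 1 higher and 7 lower, beside 7.88% of all rows (1.60% higher and 6.28% lower). Against AZA it had 9, 1 higher and 8 lower, beside 7.82% (1.94% higher and 5.87% lower). Lower against both were Ltbp4, Acvr1b (-1.81 ± 0.28 against IFN and -1.31 ± 0.27 against AZA), Bmpr2, Smad1, Fkbp1a and Cdkn1c, of which Ltbp4 and Acvr1b kept both calls in all 15 other settings. Fkbp1a lost its call in 9 (IFN) and 8 (AZA) of 15, Bmpr2 in 2 and 1, and Cdkn1c and Smad1 in 2 and 3 against AZA. Without VFDM COMBO 3 the Smad1 value against AZA went from -0.98 to -0.59 (adjusted p = 0.181, edgeR). Itgav (-0.76 ± 0.23) was lower against IFN, and Smad5 (-0.56 ± 0.17) and Nedd4l (-0.56 ± 0.18) against AZA, and these 3 calls were lost in 10, 11 and 13 of 15 other settings. On the other side were matrix genes among the targets. Col1a1 was higher against IFN, at 0.0946 to 23.7 CPM against 0 to 0.0866 CPM, a call that ended without VFDM COMBO 3 (adjusted p = 0.0960, edgeR). Fn1 was higher against AZA, at 9.75 to 53.6 CPM against 2.19 to 5.22 CPM, a call lost in 9 of 15 other settings, most of all without the libraries with few detected rows (adjusted p = 0.249, edgeR). In VF, COMBO differed from IFN in 0 of the 54 by edgeR, 8 having an unadjusted p under 0.05, and from AZA in 1, Acvr1b (-0.94 ± 0.24, adjusted p = 0.0365, edgeR), which lost its call in 7 of 16 other settings, with the highest adjusted p (0.389) without the libraries with few detected rows. Averaged over treatments, Smad1 was lower in VFDM by -0.46 ± 0.12 (adjusted p = 0.0368, edgeR) and Strap, a SMAD7 partner, higher by 0.38 ± 0.10 (adjusted p = 0.0385, edgeR). The Smad1 call was lost in 25 of 39 other settings, with -0.11 (adjusted p = 0.656, edgeR) without the libraries with few detected rows, and the Strap call in 7 of 39. With vehicle, edgeR called 0 of the 54 between the genotypes, 7 having an unadjusted p under 0.05, and DESeq2 called 3. For the interactions, edgeR called 0 for IFN and AZA, with 2 and 5 at an unadjusted p under 0.05, and 2 for COMBO, Bmpr2 and Ltbp4, both negative. For Ltbp4 the fitted value is no bound, since no VFDM COMBO library had a count, and the call was lost in 3 of 23 other settings (highest adjusted p 0.0704, without VF vehicle 1 and 4).

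**Figure D4:**
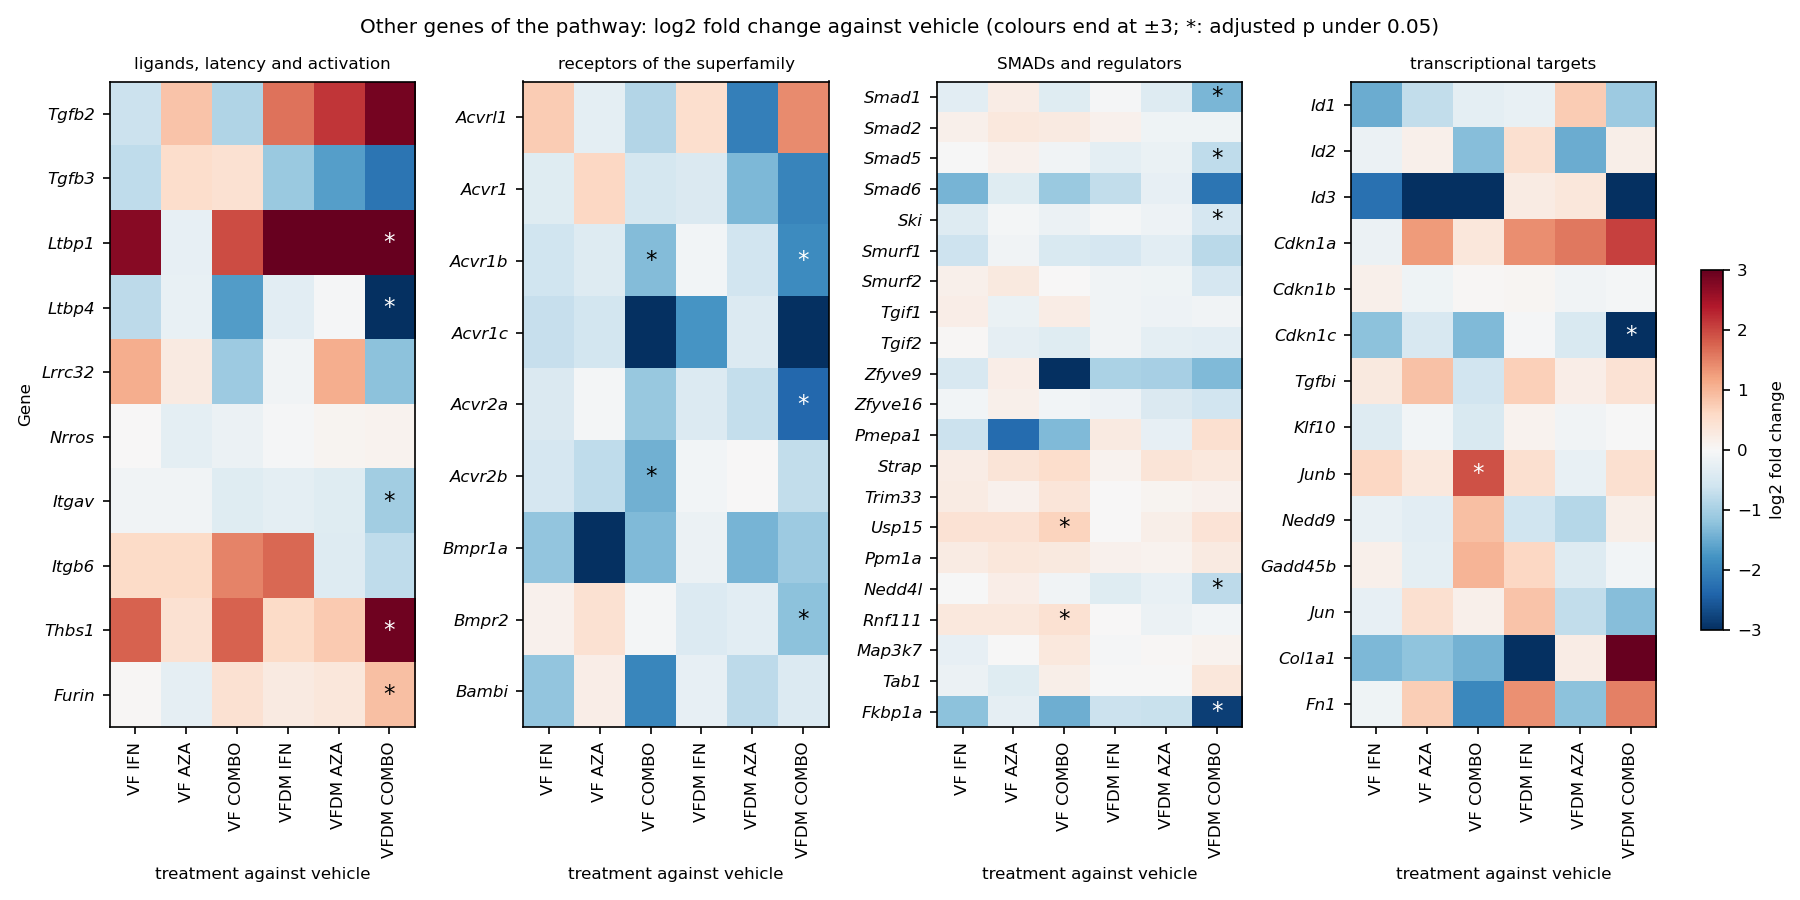
Log2 fold change against vehicle of the 54 other pathway genes tested, in 4 lists, with columns for the 6 comparisons and colours that end at ±3. Asterisks mark an adjusted p under 0.05 in edgeR. Asterisks stand in the COMBO column of each genotype and in no column of IFN or AZA alone.

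The rows whose log2 CPM followed Ltbp3 most closely over the 31 libraries were Cbx6 (Pearson r = 0.94), Pear1 (0.94) and Sash1 (0.94), out of 10469 rows compared. Without the 3 VFDM COMBO libraries the values were 0.86, 0.84 and 0.80 over 28 libraries. For Tgfbr3, Usp24 (0.92) and Arap3 (0.88) are given, with 0.90 and 0.89 over the 28 libraries. Among the 10 genes, the pairs with the highest r were Ltbp3 with Smad3 (0.73) and Tgfb1 with Tgfbr3 (0.69). These are descriptions over libraries that share treatments and scaling, given with no p.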

How the data were processed

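RNA from LT-HSCs was sequenced in 31 libraries, made with a stranded SMART-Seq kit per the labels' protocols. The authors deposited raw counts per gene. Tools listed in the submitters' processing notes are STAR 2.7.10a, featureCounts, FastQC 0.11.5 and R 4.3.0, and the build is mm10. Not given in the sources used here are the annotation, the treatment of strand and that of reads with several positions. Symbols, positions and overlaps were taken from GENCODE vM21, and promoters from RefSeq.

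The tests used edgeR 4.0.16 (R 4.3.3): TMM factors, filterByExpr (minimum count 10, total 15), 1 mean per group over all 31 libraries, robust quasi-likelihood tests, two-sided, and Benjamini-Hochberg adjustment over 22172 rows with a threshold of 0.05. The SE is the log2 fold change divided by the square root of F. CPM are per TMM-scaled library, and log2 CPM used a prior count of 2. A count of 0 allows up to 3 counts, 0.174 CPM in the library where this is highest, counting error only. The model was tested on simulated data. In 45 pairs of replicates the chi-square between libraries was at least 20.2 times its degrees of freedom, so no library was a copy of another in its group. Pairs across groups were not compared in this way.

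The 10 genes, the pathway lists and the markers were chosen with earlier results of these data known. The rule named the 10 genes, up to 4 called genes with the smallest p per list and comparison, Dnmt3a, and for the 2 genes called most often the 3 rows with the highest correlation, 1 of which is not reported here. Comparisons were 6 treatments against vehicle, 4 of COMBO against a drug, 2 of genotype and 3 interactions. Alternatives were RLE size factors, no filter, DESeq2 1.42.0, a replicate block, protein-coding rows only, and leaving out libraries. Replicate numbers did not pair the samples, and the check of this stands in the closing section.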

Additional observations from a re-analysis of the deposited data

Results flagged for a closer look

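Within groups of 4 libraries, 70 sets of values (10 genes in 7 groups) were checked for 1 library far from the other 3, and 3 were found, where chance gives about 1 in 20. Tgfb1 was at 225 CPM in VFDM IFN 1 and at 312 to 325 CPM in the other 3 libraries of that group. Tgfbr2 was at 42.3 CPM in VF AZA 1 and at 77.5 to 83.2 CPM in the others. Smad3 was at 108 CPM in VF IFN 1 and at 84.7 to 86.1 CPM in the others. The Ltbp3 response to COMBO differed between the genotypes by an interaction test, with a log2 difference of -1.60 (VFDM minus VF, adjusted p = 0.00260, edgeR).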

How the results depend on the processing

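The 22 calls of the 10 genes gave 374 values under other settings. None changed direction, 343 stayed past the threshold and 31 did not, and 11 calls held in every setting: Tgfbr3 in VF IFN and VFDM AZA, Tgfb1 in VFDM IFN, Tgfb1, Ltbp3, Tgfbr3 and Smad3 in VFDM COMBO, and Ltbp3 in VFDM COMBO against each drug, in the genotype average and in the COMBO interaction. For the other pathway genes, 151 of 724 values under other settings of the 42 calls missed the threshold. DESeq2 called 9 of the 54 pathway genes in VF COMBO (5 by edgeR), 5 for the COMBO interaction (2) and 19 in VFDM COMBO (14). Of the 10 genes, removing VF vehicle 1 and 4 left 2 called in VF IFN and 0 in VF AZA. Without the libraries with few detected rows, 2 were called in VF IFN, 0 in VF AZA, 0 in VF COMBO, 1 in VFDM AZA, 0 in VF COMBO against AZA and 3 in VFDM COMBO against AZA. In VFDM COMBO 7 were called without those libraries, against 5 with all libraries. On protein-coding rows 1 was called for the AZA interaction. DESeq2 called 2 in VF IFN and 1 for the AZA interaction. In VFDM IFN, where 2 were called with all libraries, the number over 8 settings was 2 to 3, with 3 under RLE size factors.

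With each library left out in turn, the number called among the 10 was 1 to 2 in VF IFN, 0 to 1 in VF AZA, 2 to 3 in VF COMBO, 1 to 3 in VFDM IFN, 1 to 3 in VFDM AZA and 4 to 5 in VFDM COMBO. For VF COMBO it was 0 to 1 against IFN and 1 to 3 against AZA, and for VFDM COMBO 1 to 3 and 1 to 2. For genotype it was 0 to 1 with vehicle and 1 to 2 on average, and for the interactions 0 to 0 (IFN), 0 to 1 (AZA) and 1 to 2 (COMBO).

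Counts over all rows moved by more than 1.5 times in each comparison. VF AZA had 265 calls, 85 to 942 with 1 library left out (lowest without VF AZA 2, highest without VF vehicle 3), 3 without the libraries with few detected rows and 843 by DESeq2. VF IFN had 538, 273 to 1040 with 1 library left out and 205 without VF vehicle 1 and 4. VF COMBO had 1838, 823 to 3007 with 1 left out and 228 without the libraries with few detected rows. VFDM COMBO had 3551, 2531 to 3081 with 1 left out and 6062 without the libraries with few detected rows. Leaving those libraries out gave 631 in VFDM IFN (214), 45 in VF COMBO against AZA (411), 3742 and 2969 in VFDM COMBO against IFN and AZA (1748 and 1733) and 809 for genotype with vehicle (212), with the values of all 31 libraries in brackets. DESeq2 gave 418 in VFDM AZA (205), 189 in VF COMBO against IFN (2), 881 for the genotype average (525), and 33, 381 and 1833 for the IFN, AZA and COMBO interactions (0, 129 and 830). The causes were not tested.

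Samples with the same number did not deviate together: of 105 such pairs across groups, 10 had a correlation over 0.1, and the median was -0.0056. With the replicate number as a block, the calls of the 10 genes were 1, 1, 3, 2, 3 and 5 in the 6 comparisons with vehicle, as without it, and in VFDM COMBO 3157 rows were called. With at least 205 counts for each of the 10 genes in each library, depth limits mainly low genes such as Ltbp1, Ltbp4 and Col1a1. RLE size factors moved the median of all rows by at most 0.04 log2 units.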
